A study of Mus musculus with 8 samples.

Results

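Insulin signalling and glucose uptake were examined through 10 genes, taken by name from a table of 34866 genes: the insulin receptor gene Insr, its substrates Irs1 and Irs2, the signalling genes Pik3r1, Akt2 and Foxo1, the transport regulator Tbc1d4, the glucose transporters Slc2a4 and Slc2a1, and the hexokinase gene Hk2. They were chosen by role, with earlier results of these data known, and each was found once in the table. The tissue was epididymal white fat, the depot beside the epididymis, of male mice. Both groups carried an aromatase gene with loxP sites on each copy (Aromatase flox/flox, 4 libraries, called control), and the other 4 libraries came from mice that also carried the aP2-Cre transgene. Aromatase, encoded by Cyp19a1, turns androgens into oestrogens, and the study looked for genes that aromatase controls in fat and that act in phosphorus metabolism. The aP2 promoter is that of Fabp4, a lipid carrier gene, which macrophages and some endothelial cells use as well as adipocytes. Mice with the transgene alone were not analysed here, and the age of the animals is not given in the sources used here.

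Insulin binds a receptor tyrosine kinase that phosphorylates the IRS proteins, which recruit phosphoinositide 3-kinase. The lipid it makes activates AKT, and in adipocytes AKT2 phosphorylates AS160, the product of Tbc1d4, which releases vesicles that carry the transporter GLUT4 to the cell surface. AKT also keeps FOXO1 out of the nucleus, and hexokinase traps the glucose that enters. Most of these steps are set by phosphorylation and by protein position, which RNA levels do not show.

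Libraries were made by BRB-seq, which reads the 3′ ends of polyadenylated RNA, and held 1538427 to 3053565 estimated counts each. Control replicate 4 was the smallest. All 17 adipocyte marker genes were tested, and their summed level was 41722 to 55833 CPM (the usual scaling of counts to a common library total, here with trimmed-mean factors) in the control and 34752 to 52529 CPM in the aP2-Cre libraries. The 16 macrophage markers summed to 1088 to 1287 and 1628 to 2071 CPM, with no overlap. Of the 15 tested, 13 were higher in aP2-Cre, 3 passed an edgeR adjusted p of 0.05 (0.168% of all genes) and 7 did not overlap (4.2%). The highest among them, Lyz2, was at 351 to 400 CPM in the control and 593 to 791 CPM in the aP2-Cre libraries. The 15 skeletal muscle markers summed to 20.9 to 34.9 and 26.9 to 96.9 CPM. Of 12 epididymal epithelium markers, 7 were at 0 in every library. The 12 summed to 0 to 4.57 CPM in the control and 0 to 8.83 CPM in the aP2-Cre libraries. Adam7 was at 8.45 CPM in aP2-Cre replicate 3 and 3.74 CPM in control replicate 2. Cyp19a1 had 0 to 5.017 counts per library and did not pass the low-count filter, so the deletion could not be checked. In bulk tissue, fewer cells of a type and less RNA per cell cannot be told apart.

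The promoters of the receptor substrates Irs1 and Irs2 are shown because they were the only members whose windows held either an E-box (CACGTG, read by SREBP-1, USF and related factors) or the insulin response sequence that FOXO proteins read (TGTTTTG, listed as CAAAACA on the other strand); this choice was made after the search. The 250 bases before the RefSeq start in GRCm38.p6 are given 5′ to 3′ on the minus strand, at chr1:82291440-82291689 for Irs1 and chr8:11008930-11009179 for Irs2, with both motifs in capitals.
Irs1: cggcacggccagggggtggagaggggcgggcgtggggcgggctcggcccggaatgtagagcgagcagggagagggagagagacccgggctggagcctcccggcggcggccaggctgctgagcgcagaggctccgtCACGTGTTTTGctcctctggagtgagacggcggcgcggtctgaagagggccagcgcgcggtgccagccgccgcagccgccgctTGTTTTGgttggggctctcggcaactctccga
Irs2: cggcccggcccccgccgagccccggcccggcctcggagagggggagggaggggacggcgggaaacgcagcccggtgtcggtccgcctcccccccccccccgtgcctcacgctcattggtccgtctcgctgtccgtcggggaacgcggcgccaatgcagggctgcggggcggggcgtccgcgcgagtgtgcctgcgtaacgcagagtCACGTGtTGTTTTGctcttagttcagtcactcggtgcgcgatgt
In Irs1 the E-box began 115 bases before the start and ran into a TGTTTTG that began at 111, so that the motifs share bases, and a further TGTTTTG began at 32. In Irs2 the E-box began 44 bases before the start, and the insulin response sequence began at 37. These distances are from the RefSeq starts. Counted from the GENCODE gene starts (82291416 for Irs1 and 11008458 for Irs2) they are larger, and more so for Irs2. Over 32851 promoter windows of the same length, searched on both strands, CACGTG was found in 6.02%, CAAAACA in 5.56% and both in 0.295%. Of the 10 genes, 8 matched the promoter table (all but Insr and Slc2a4), with 4 windows for Akt2 and 2 for Pik3r1. None of the 8 held GTAAACA (3.17% of windows), all 8 held GGGCGG in at least 1 window (32.7%), 4 held CCAAT (33.8%; Foxo1, Hk2, Irs2 and Pik3r1) and Pik3r1 held TATAAA (12.4%). The match is of letters only and shows no binding.

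None of the 10 genes passed an adjusted p of 0.05 between the genotypes in edgeR's quasi-likelihood test, and none had an unadjusted p under 0.05. Over all 12480 genes tested, 0.168% passed the adjusted threshold and 6.39% had an unadjusted p under 0.05. The log2 fold change (aP2-Cre over control) was below 0 in 8 of the 10 genes, against 50.3% of all genes tested, and their median was -0.20, against -0.00149 over all genes. The libraries of the genotypes overlapped in each of the 10 genes; over all genes 4.2% did not overlap. An unadjusted p under 0.05 was reached by Foxo1 with limma-voom and with upper-quartile factors, where 9 of 10 values were below 0, and by Pik3r1 without the low-count filter. Leaving out 1 library gave 0 to 2 such genes: Slc2a1 without control replicate 1, Irs1 and Pik3r1 without control replicate 4, Irs1 without aP2-Cre replicate 1, Pik3r1 without aP2-Cre replicate 2 and Foxo1 without aP2-Cre replicate 4. DESeq2 gave no unadjusted p under 0.05 for any of the 10. The labels do not say that the libraries come from separate animals, so p-values measure the spread between these libraries, which may be technical.

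**Figure D1:**
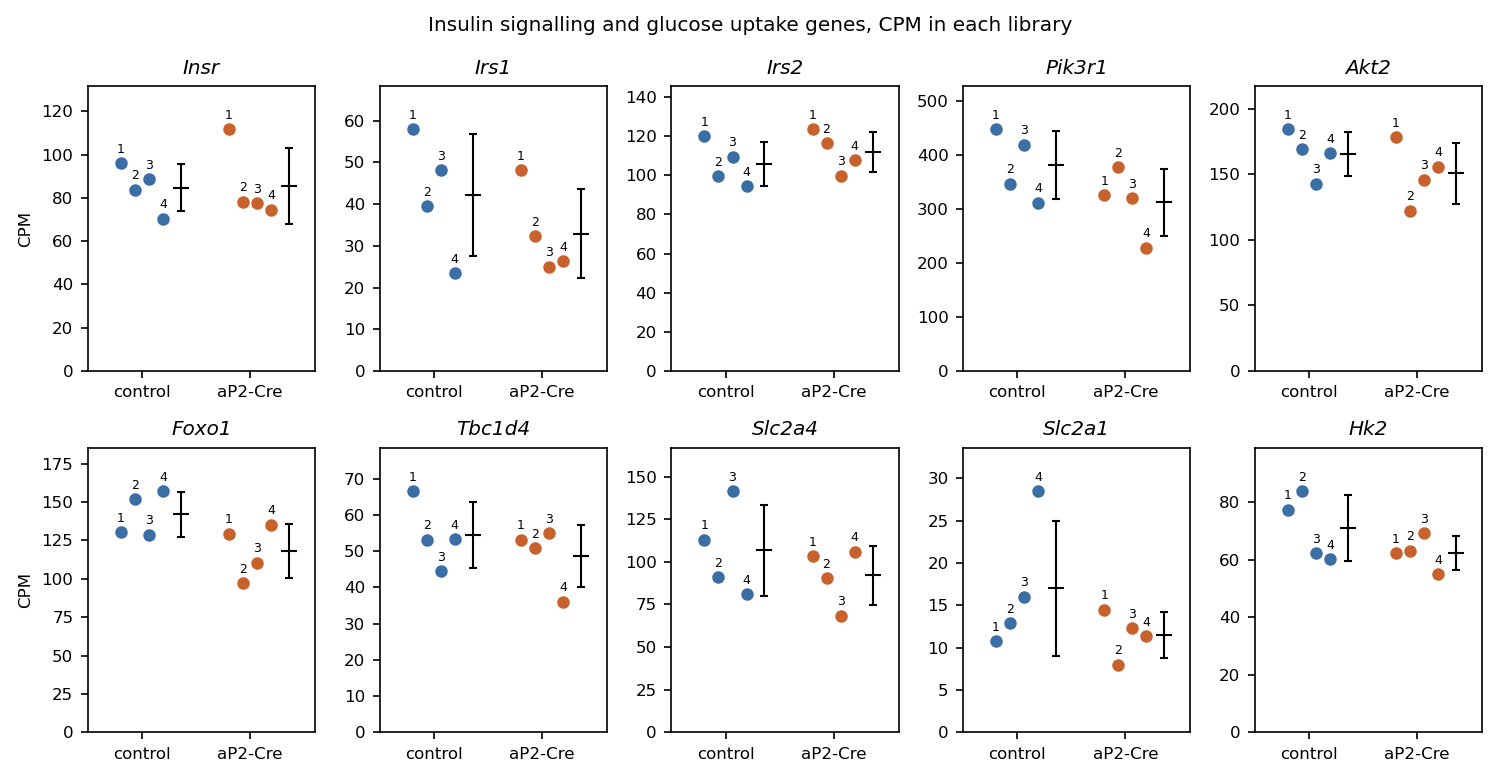
CPM (y axis, from 0, a scale for each gene) of the 10 genes in the 4 control and 4 aP2-Cre libraries; points are libraries with their replicate number, and the bar to the right of each group is the mean ± SD. In each panel the points of the genotypes overlap.

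The receptor gene Insr (chromosome 8, 3122061 to 3279617, GRCm38) was at 96.0, 83.9, 88.6 and 70.4 CPM in control replicates 1 to 4 and at 111.6, 78.3, 77.6 and 74.4 CPM in aP2-Cre replicates 1 to 4. The aP2-Cre replicate 1 library stood above all others, and the remaining 3 lay inside the control range. The means were 84.7 ± 10.8 and 85.5 ± 17.5 CPM (SD, n = 4 each), with a log2 fold change of 0.004348 and a 95% interval of -0.31 to 0.32 (edgeR adjusted p = 0.999). Without aP2-Cre replicate 1 the value was -0.15. Insr thus had the value nearest 0 of the 10, and its interval reached from 0.805-fold to 1.25-fold.

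Irs1, which encodes the substrate best known in fat and muscle, lies on chromosome 1 (82233101 to 82291416), and Gm9747 overlaps it on the other strand. Irs1 was at 57.9, 39.4, 48.1 and 23.5 CPM in control replicates 1 to 4 and at 48.1, 32.4, 24.96 and 26.3 CPM in aP2-Cre replicates 1 to 4. Control replicate 4 was the lowest of all 8 libraries, with 37 counts, while the other controls stood above 3 of the 4 aP2-Cre libraries. The means were 42.2 ± 14.6 and 32.9 ± 10.6 CPM (SD, n = 4), and the log2 fold change was -0.39 (SE 0.272, 95% interval -0.98 to 0.21, edgeR adjusted p = 0.91). The value was -0.57 without control replicate 4, with an unadjusted p of 0.0236 (adjusted p = 0.58), -0.62 without aP2-Cre replicate 1 and -0.19 without control replicate 1.

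Irs2, the substrate whose transcription FOXO1 is known to raise and insulin to lower in liver, lies on chromosome 8 (10984681 to 11008458). Its libraries held 120, 99.6, 109.5 and 94.4 CPM in control replicates 1 to 4 and 123, 116, 99.8 and 107.6 CPM in aP2-Cre replicates 1 to 4. The groups covered nearly the same range. The means of 106 ± 11.3 and 112 ± 10.3 CPM (SD, n = 4) gave a log2 fold change of 0.07 (95% interval -0.18 to 0.33, edgeR adjusted p = 0.956), which spanned 0.0257 (without aP2-Cre replicate 1) to 0.14 (without control replicate 1) as single libraries were left out. Irs2 varied least between libraries of a genotype in the aP2-Cre group, with a coefficient of variation of 9.18%, against 32.2% for Irs1.

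The balance of the substrates was read within each library, where library size cancels. The log2 ratio of Irs1 to Irs2 was -1.04, -1.32, -1.17 and -1.97 in the controls (replicates 1 to 4) and -1.34, -1.82, -1.97 and -1.998 in aP2-Cre replicates 1 to 4. Control replicate 4 lay among the aP2-Cre libraries, and the other 3 control libraries lay above all 4 of them. The mean difference was -0.41 (control -1.38 ± 0.413, aP2-Cre -1.78 ± 0.301, SD, n = 4; two-sided exact permutation p = 0.143, adjusted p = 0.571 over 4 ratios, with 0.0286 the smallest p that 4 against 4 allows).

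**Figure D2:**
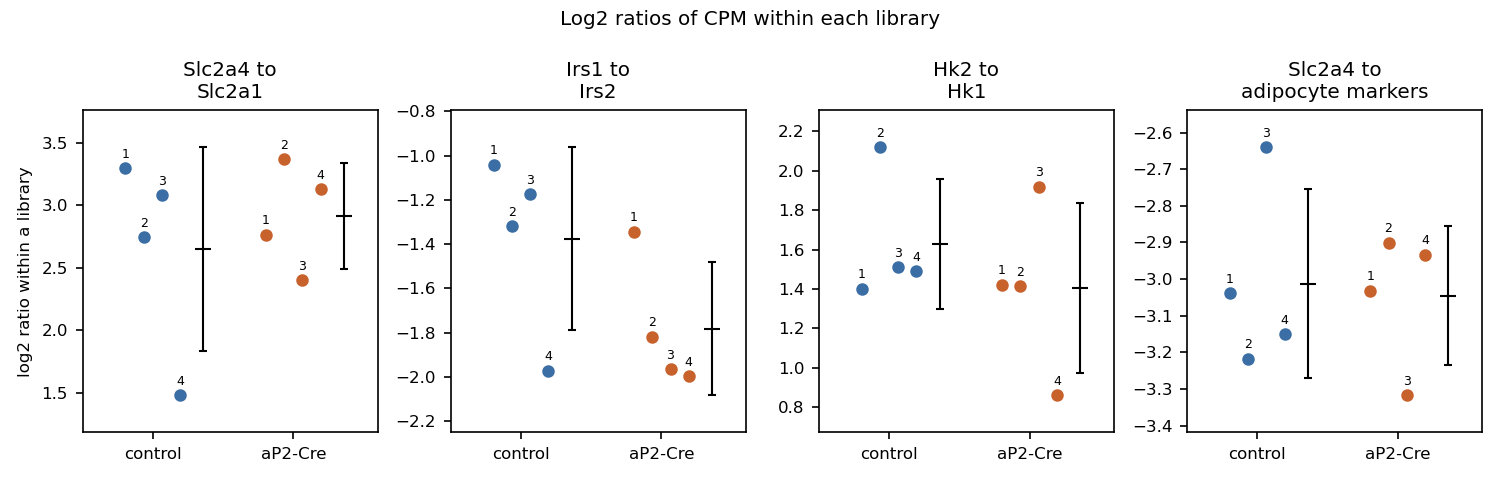
Log2 ratio within each library (y axis, scales differ and do not start at 0) of Slc2a4 to Slc2a1, Irs1 to Irs2, Hk2 to Hk1 and Slc2a4 to the mean of 17 adipocyte markers; points are libraries with their replicate number and bars are the mean ± SD. The genotypes overlap in each of the 4 ratios, and control replicate 4 has the lowest Slc2a4 to Slc2a1 ratio, at 1.48.

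Pik3r1 encodes the p85α regulatory subunit of phosphoinositide 3-kinase (chromosome 13, 101680563 to 101768217). It was at 448, 347, 419.7 and 312 CPM in control replicates 1 to 4 and at 326, 378, 320.6 and 228 CPM in aP2-Cre replicates 1 to 4. The highest pair of values were controls and the lowest was an aP2-Cre library, with the rest mixed. The means were 382 ± 62.9 and 313 ± 62.1 CPM (SD, n = 4), for a log2 fold change of -0.29 (95% interval -0.63 to 0.05, edgeR adjusted p = 0.844). Without aP2-Cre replicate 4, the lowest library, the value was -0.16. Its paralog Pik3r2, which encodes p85β, was at 28.8 ± 3.57 and 22.3 ± 6.84 CPM (SD, n = 4, giving -0.35 on the log2 scale with edgeR adjusted p = 0.901).

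Akt2, the AKT kinase gene most tied to glucose uptake, lies on chromosome 7 (27591552 to 27640826). Its libraries held 184, 169, 143 and 166 CPM in control replicates 1 to 4 and 178, 122, 146 and 156 CPM in aP2-Cre replicates 1 to 4. Only aP2-Cre replicate 2 lay below the control range. The means were 165 ± 17.04 and 151 ± 23.2 CPM (SD, n = 4), for a log2 fold change of -0.14 (95% interval -0.42 to 0.14, edgeR adjusted p = 0.934). It was -0.23 without aP2-Cre replicate 1, -0.08 without control replicate 1 and -0.0495 without aP2-Cre replicate 2. Akt2 shares 964 of its 7255 words of 31 bases with the pseudogene Akt2-ps, which was at 0 in 6 of the 8 libraries and had at most 2.1141 counts. Akt1, the more widely used kinase gene, was at 93.0 ± 5.86 and 90.9 ± 11.7 CPM (SD, n = 4, giving -0.03 on the log2 scale with edgeR adjusted p = 0.985).

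Foxo1 encodes the transcription factor that AKT holds in the cytoplasm (chromosome 3, 52268336 to 52353221), and it had the smallest p of the 10 genes. Its transcripts hold a run of 25 A bases, against at most 11 in the other members. The effect of this run on the 3′-end counts was not tested. Foxo1 was at 130.4, 152, 129 and 157 CPM in control replicates 1 to 4 and at 129, 97.1, 111 and 135 CPM in aP2-Cre replicates 1 to 4. The lowest pair were aP2-Cre libraries and the highest pair were controls, with the other 4 libraries between 129 and 135 CPM. The means were 142 ± 14.7 and 118 ± 17.5 CPM (SD, n = 4), and the log2 fold change was -0.26 (SE 0.129, 95% interval -0.54 to 0.01, edgeR unadjusted p = 0.0611, adjusted p = 0.811). Foxo3, a paralog under the same control by AKT, was at 45.9 ± 0.974 and 46.4 ± 6.41 CPM (SD, n = 4, giving 0.02 on the log2 scale with edgeR adjusted p = 0.992).

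Tbc1d4 (chromosome 14, 101442360 to 101609191) encodes the GTPase-activating protein that holds GLUT4 vesicles inside the cell until AKT phosphorylates it. It was at 66.6, 53.1, 44.5 and 53.2 CPM in control replicates 1 to 4 and at 53.1, 50.7, 54.9 and 36.1 CPM in aP2-Cre replicates 1 to 4. Of the aP2-Cre libraries, replicate 4 alone lay below the control range. The means were 54.4 ± 9.11 and 48.7 ± 8.58 CPM (SD, n = 4), for a log2 fold change of -0.17 (95% interval -0.52 to 0.19, edgeR adjusted p = 0.939), and the value was -0.04 without that library, -0.05 without control replicate 1 and -0.25 without control replicate 3. Its paralog Tbc1d1 was at 27.3 ± 11.5 and 27.8 ± 8.01 CPM (SD, n = 4, giving 0.06 on the log2 scale with edgeR adjusted p = 0.987).

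Slc2a4 encodes GLUT4, the transporter that insulin moves to the surface of adipocytes and muscle cells (chromosome 11, 69942539 to 69948188). It was at 113, 90.9, 141.5 and 81.1 CPM in control replicates 1 to 4 and at 103, 90.3, 68.3 and 106 CPM in aP2-Cre replicates 1 to 4. Control replicate 3 was the highest and aP2-Cre replicate 3 the lowest, and the other 6 libraries were mixed. The means were 107 ± 26.8 and 92.0 ± 17.2 CPM (SD, n = 4), for a log2 fold change of -0.22 (95% interval -0.61 to 0.17, edgeR adjusted p = 0.922), and the value was -0.05 without control replicate 3 and -0.10 without aP2-Cre replicate 3. The interval runs from 0.656-fold to 1.13-fold.

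Set against the mean log2 CPM of 17 adipocyte markers, Slc2a4 differed little. The log2 ratio was -3.04, -3.22, -2.64 and -3.15 in the controls (replicates 1 to 4) and -3.03, -2.90, -3.32 and -2.93 in aP2-Cre replicates 1 to 4. The difference of the means was -0.03 (control -3.01 ± 0.258, aP2-Cre -3.05 ± 0.189, SD, n = 4; two-sided exact permutation p = 0.886, adjusted p = 0.886). Its sign turned without control replicate 3 (0.0904) and without aP2-Cre replicate 3 (0.057).

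Over the 8 libraries, the genes whose log2 CPM followed Slc2a4 most closely were Lsm12 (Pearson r = 0.969), Gtf2a2 (0.963), Lipe (0.962), Tmem120a (0.952) and Ghitm (0.950). These are the highest of 12479 values over 8 points that share depth and scaling, and they are given as a description. Lipe encodes hormone-sensitive lipase and is one of the 17 adipocyte markers. It was at 761 CPM on average, with a log2 fold change of -0.14 (edgeR adjusted p = 0.939). The Spearman rho of the 5 genes with Slc2a4 was 0.952 to 1.0.

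Slc2a1 encodes GLUT1, the transporter of basal glucose uptake in most cells (chromosome 4, 119108711 to 119137983), and had 20 to 45 counts per library. It was at 10.7, 12.9, 16.02 and 28.5 CPM in control replicates 1 to 4 and at 14.5, 7.99, 12.3 and 11.4 CPM in aP2-Cre replicates 1 to 4. Control replicate 4 stood above all others, and the remaining 7 libraries were mixed. The means were 17.04 ± 7.96 and 11.5 ± 2.71 CPM (SD, n = 4), for a log2 fold change of -0.53 (95% interval -1.21 to 0.15, edgeR adjusted p = 0.883). This was the value farthest from 0 of the 10 genes, and it was -0.19 without control replicate 4 and -0.70 without control replicate 1 (edgeR unadjusted p = 0.0476, adjusted p = 0.832). Control replicate 4 also had the lowest summed level of 12 endothelial markers, 652 CPM against 958 to 1243 CPM in the other 7, and the highest of 8 mesothelial markers, 370.2 CPM against 116 to 239 CPM; the part of either in the Slc2a1 value was not tested.

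The log2 ratio of Slc2a4 to Slc2a1 was 3.30, 2.74, 3.08 and 1.48 in the controls (replicates 1 to 4) and 2.76, 3.37, 2.40 and 3.13 in aP2-Cre replicates 1 to 4. Apart from control replicate 4, the libraries of both genotypes shared 1 range. The mean difference was 0.27 (control 2.65 ± 0.812, aP2-Cre 2.92 ± 0.425, SD, n = 4; two-sided exact permutation p = 0.629, adjusted p = 0.838), and without control replicate 4 it was -0.12.

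Hk2 encodes the hexokinase that insulin induces in fat and muscle (chromosome 6, 82725025 to 82774454). It was at 77.3, 83.9, 62.3 and 60.2 CPM in control replicates 1 to 4 and at 62.2, 63.1, 69.1 and 54.9 CPM in aP2-Cre replicates 1 to 4. The highest pair were controls and the lowest library was aP2-Cre, with 5 libraries between 60.2 and 69.1 CPM. The means were 70.9 ± 11.5 and 62.3 ± 5.81 CPM (SD, n = 4), for a log2 fold change of -0.19 (95% interval -0.49 to 0.10, edgeR adjusted p = 0.91), and without control replicate 2 it was -0.10. Hk1, the constitutive hexokinase gene, was at 22.4 ± 4.39 and 23.4 ± 5.03 CPM (SD, n = 4, giving 0.06 on the log2 scale with edgeR adjusted p = 0.985).

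The log2 ratio of Hk2 to Hk1 was 1.40, 2.12, 1.51 and 1.49 in the controls (replicates 1 to 4) and 1.42, 1.41, 1.92 and 0.86 in aP2-Cre replicates 1 to 4. The genotypes overlapped, with aP2-Cre replicate 4 lowest. The difference of -0.23 (control 1.63 ± 0.329, aP2-Cre 1.40 ± 0.433, SD, n = 4) had a two-sided exact permutation p of 0.371 (adjusted p = 0.743), and was -0.06 without control replicate 2, -0.04 without aP2-Cre replicate 4 and -0.40 without aP2-Cre replicate 3. Hk3, the hexokinase gene of myeloid cells, was too low to be tested, at 2.43, 2.08, 1.78 and 0.63 CPM in control replicates 1 to 4 and at 3.63, 6.79, 1.54 and 5.53 CPM in aP2-Cre replicates 1 to 4. With 1 to 17 counts per library, Hk3 overlapped between the genotypes. The 0.63 CPM of control replicate 4 was 1 count, under the 1.95 CPM that a gene at 0 could reach there by counting error. The summed macrophage markers were higher in the aP2-Cre libraries, and their part in the Hk3 values was not tested.

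**Figure D3:**
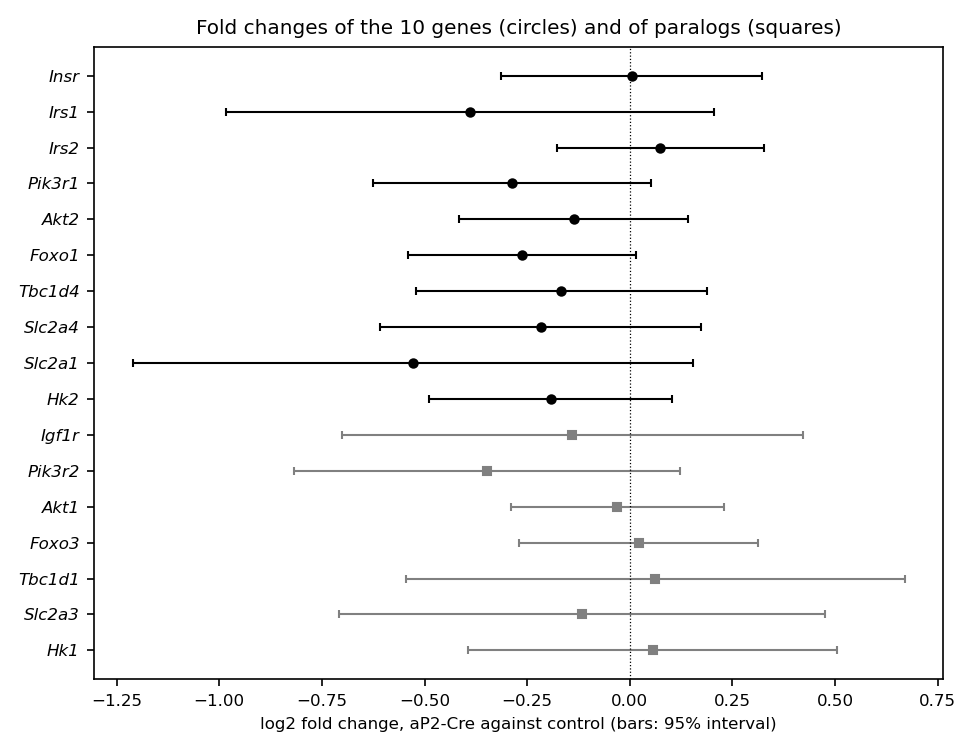
Log2 fold change, aP2-Cre against control (x axis), of the 10 genes (circles) and 7 tested paralogs (squares), with 95% intervals from edgeR as bars. All 17 intervals include 0; the widest among the 10 genes is that of Slc2a1, from -1.21 to 0.15.

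No library was extreme for all 10 genes. Control replicate 1 held the highest value in 4 of them (Irs1, Pik3r1, Akt2 and Tbc1d4), and control replicate 4 the highest in 2 (Foxo1 and Slc2a1) and the lowest in 3 (Insr, Irs1 and Irs2). The aP2-Cre replicate 2 library was lowest in 3 (Akt2, Foxo1 and Slc2a1), as was aP2-Cre replicate 4 (Pik3r1, Tbc1d4 and Hk2). Within the control group the coefficient of variation ran from 10.3% for Akt2 and Foxo1 to 46.7% for Slc2a1. The upper ends of the 95% intervals lay between 1.01-fold for Foxo1 and 1.25-fold for Insr and Irs2, and the lower ends between 0.432-fold for Slc2a1 and 0.884-fold for Irs2. For none of the 10 genes did the interval include a doubling, and for Slc2a1 alone it included a halving.

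Around the receptor, 19 of 20 listed receptor, adaptor and inhibitor genes were tested; 0 passed the adjusted threshold, and 1 had an unadjusted p under 0.05, against 6.39% of all genes, with a median log2 fold change of 0.11. That gene was Enpp1, which encodes a nucleotide pyrophosphatase able to bind and inhibit the insulin receptor, at 4.96 ± 1.81 and 8.91 ± 0.728 CPM (SD, n = 4, giving 0.88 on the log2 scale with edgeR adjusted p = 0.689). Enpp1 had few counts, 8.31 to 12.8 per control library and 18.5 to 30 per aP2-Cre library. Its lowest aP2-Cre library lay above its highest control library, in 1 of the 19 genes tested against 4.2% of all genes without overlap. The unadjusted p of Enpp1 was not under 0.05 without control replicate 1, 2 or 3 or aP2-Cre replicate 4. The adaptor gene Grb2 was at 83.9 ± 4.80 and 92.2 ± 5.27 CPM (SD, n = 4, giving 0.14 on the log2 scale with edgeR adjusted p = 0.918), and Igf1r, the receptor gene nearest to Insr, at 92.1 ± 27.9 and 82.7 ± 26.2 CPM (SD, n = 4, giving -0.14 on the log2 scale with edgeR adjusted p = 0.965).

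All 24 genes of the phosphoinositide 3-kinase and AKT arm were tested, and 0 passed. The 2 with an unadjusted p under 0.05, both with higher aP2-Cre means, encode inositol phosphatases that oppose the kinase; genes with a higher mean and such a p made up 3.52% of all genes tested. Inpp5d, which encodes SHIP1 of blood-forming cells, was at 9.23 ± 3.66 and 16.9 ± 6.63 CPM (SD, n = 4, giving 0.84 on the log2 scale with edgeR adjusted p = 0.689), and Inpp5k at 28.3 ± 5.63 and 36.7 ± 3.74 CPM (SD, n = 4, giving 0.37 on the log2 scale with edgeR adjusted p = 0.775). The number with such a p was 0 without aP2-Cre replicate 1 or control replicate 3, and 1 without control replicate 1, 2 or 4 or aP2-Cre replicate 2. Inpp5d was at 26.8 CPM in aP2-Cre replicate 1 alone, and without that library its log2 fold change was 0.54. Macrophage markers were higher in the aP2-Cre libraries (1628 to 2071 against 1088 to 1287 CPM), and their part in the Inpp5d value was not tested. Of 15 AKT substrate genes tested, 0 had an unadjusted p under 0.05 and the median was -0.04; Akt1s1 and Gsk3b had log2 fold changes of -0.17 and 0.12.

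Of the genes that move GLUT4 vesicles, 25 of 25 were tested and 0 passed, with a median of 0.04. The smallest p belonged to Myo5a, a myosin motor gene, at 73.85, 65.6, 66.3 and 62.8 CPM in control replicates 1 to 4 and at 102, 95.5, 89.5 and 92.0 CPM in aP2-Cre replicates 1 to 4. Each aP2-Cre library lay above each control library, in 1 of the 25 genes against 4.2% of all genes without overlap. Myo5a had a log2 fold change of 0.49 (SE 0.112), and the edgeR unadjusted p of 0.000537 became 0.159 after adjustment over all genes. Summed macrophage markers were also higher in the aP2-Cre libraries without overlap (1628 to 2071 against 1088 to 1287 CPM). Their part in the Myo5a value was not tested. Ralgapa1, which encodes a subunit of the GTPase-activating complex for RAL proteins, was at 57.0 ± 5.18 and 68.8 ± 5.65 CPM (SD, n = 4, giving 0.27 on the log2 scale with edgeR adjusted p = 0.771).

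Among 14 glucose transporter genes, 7 were tested and 0 had an unadjusted p under 0.05. Slc2a10 was at 3.94 ± 0.167 and 6.38 ± 1.43 CPM (SD, n = 4, giving 0.69 on the log2 scale with edgeR adjusted p = 0.822), with no overlap between the genotypes, and Slc2a12, which encodes GLUT12, at 7.15 ± 1.76 and 10.6 ± 2.56 CPM (SD, n = 4, giving 0.58 on the log2 scale with edgeR adjusted p = 0.863). Slc2a10 had only 6.15 to 11.1 counts per control library and 11 to 22.2 per aP2-Cre library. Its small control SD and its lack of overlap thus rest on few counts, and 4.2% of all genes did not overlap. Slc2a3, which encodes GLUT3, was at 21.8 ± 7.78 and 20.2 ± 6.04 CPM (SD, n = 4, giving -0.12 on the log2 scale with edgeR adjusted p = 0.982). The tested transporter genes thus lay on both sides of 0, from -0.53 for Slc2a1 to 0.69 for Slc2a10.

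The genes that use glucose, Hk2 itself among them, lay mostly below 0. Of 26 hexokinase, glycolysis and pentose phosphate genes, 23 were tested; 20 had a log2 fold change below 0, the median was -0.19, and 6 had an unadjusted p under 0.05 with a lower aP2-Cre mean, against 2.87% of all genes. Without Hk2 the median was -0.21. None of the 23 passed the adjusted threshold in edgeR. Aldoa, the aldolase gene, was at 1058, 964, 1251 and 901 CPM in control replicates 1 to 4 and at 709, 652, 679.6 and 842 CPM in aP2-Cre replicates 1 to 4. Each aP2-Cre library lay below each control library. Aldoa fills 2 rows of the table, of which the one with most counts is given, and Fam57b overlaps it on the other strand. The log2 fold change of Aldoa was -0.53 (SE 0.131, 95% interval -0.81 to -0.25, edgeR adjusted p = 0.255), and Aldoa passed with DESeq2 (adjusted p = 0.0233) and in edgeR without the low-count filter (adjusted p = 0.0389).

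The lactate dehydrogenase gene Ldha was at 720.5, 631, 693 and 597 CPM in control replicates 1 to 4 and at 518, 469, 536 and 542 CPM in aP2-Cre replicates 1 to 4, again with no overlap (log2 fold change -0.35, standard error 0.11, edgeR adjusted p = 0.482). Of the 23 genes tested in the list, 3 had no overlap, against 4.2% of all genes. Aldoa and Ldha are shown because they had the smallest p of the list, and a small p favours groups that do not overlap. The other 4 with an unadjusted p under 0.05, named after their values were seen, were Gpi1, Tpi1, Pfkfb1 and Pfkm, with log2 fold changes of -0.36, -0.49, -0.54 and -0.75. Gpi1 shares 829 of its 6560 words of 31 bases with Gm1840, Aldoa 206 of 3057 with Aldoart1 and Ldha 269 of 3461 with Gm5452. Other genes of the list share more, such as Eno1 (1509 of 5438 with Eno1b), Pgk1 (1225 of 2240 with Pgk1-rs7) and Gapdh (1169 of 4408 with Gm7336). The division of some reads in this list is thus uncertain. Skeletal muscle markers, of which 1 of 15 was tested, summed to 87.9 and 96.9 CPM in aP2-Cre replicates 2 and 4 and to 20.9 to 34.9 CPM in the other 6 libraries. The summed adipocyte markers overlapped between the genotypes, but 14 of the 17 had a log2 fold change below 0, with a median of -0.05, 2 had an unadjusted p under 0.05 and the smallest edgeR adjusted p was 0.0731. The part of either in the values of the 10 genes and of the glycolysis and lipogenic lists was not tested.

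**Figure D4:**
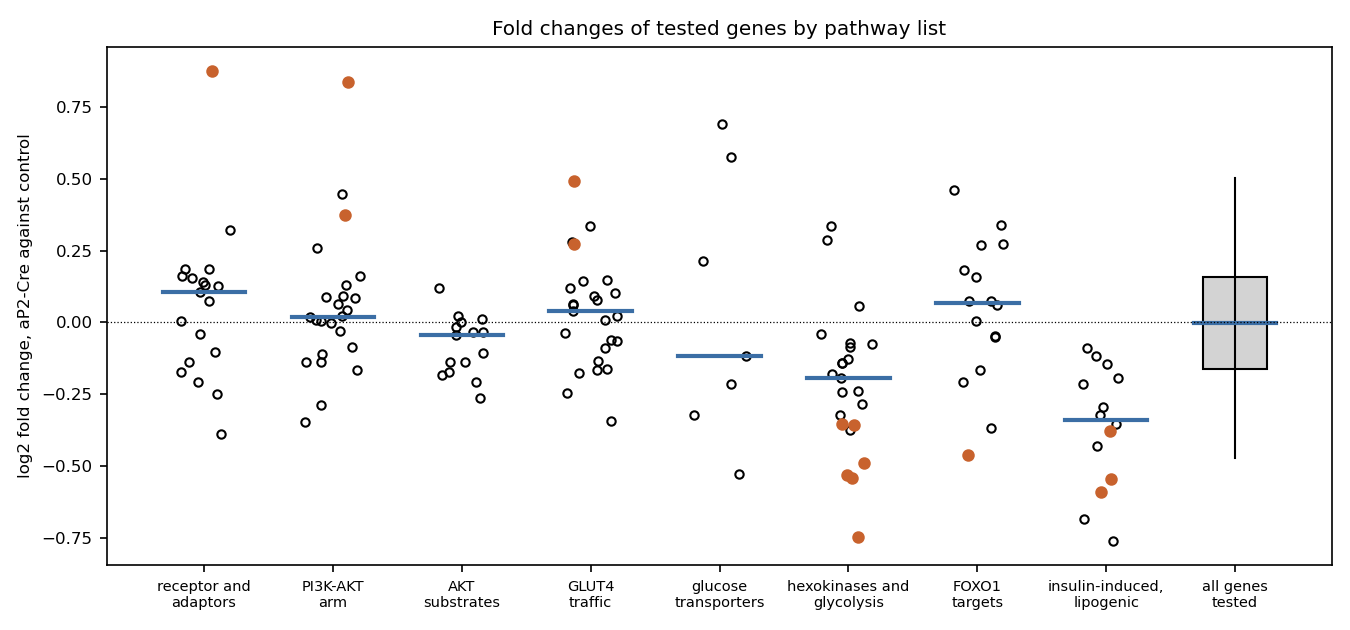
Log2 fold change, aP2-Cre against control (y axis), of each tested gene in 8 pathway and readout lists; open points are genes with an unadjusted p of 0.05 or more, filled points those under 0.05, and blue lines are medians. The box shows all 12480 genes (quartiles, with a line from the 5th to the 95th percentile); the lowest medians are those of the lipogenic list at -0.34 and of the glycolysis list at -0.19.

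Genes known to answer to insulin were read as well. Of 18 genes known to be raised by FOXO1, which include the members Insr and Irs2, 16 were tested and 0 passed. Of the 16, 10 had a log2 fold change above 0, Insr and Irs2 among them. The median was 0.07 with or without Insr and Irs2. Klf15, a Krüppel-like factor gene, had the smallest p, at 45.8, 57.3, 52.96 and 57.05 CPM in control replicates 1 to 4 and at 40.8, 39.6, 33.8 and 40.0 CPM in aP2-Cre replicates 1 to 4. The genotypes did not overlap (log2 fold change -0.46, edgeR adjusted p = 0.438), in 1 of the 16 genes tested against 4.2% of all genes. Sesn1, a sestrin gene, was at 32.7 ± 4.06 and 41.4 ± 7.29 CPM (SD, n = 4, giving 0.34 on the log2 scale with edgeR adjusted p = 0.809).

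Of 15 genes known to be raised by insulin, most of them lipogenic and 2 of them (Slc2a4 and Hk2) among the 10, 14 were tested; 0 passed, and all 14 had a log2 fold change below 0, against 50.3% of all genes, with a median of -0.34. The list, like the others, was chosen with earlier results known. Srebf1 and Acaca are shown because they had the smallest p of the list. Of the 14, 1 had no overlap between the genotypes, against 4.2% of all genes. Without Slc2a4 and Hk2 the median was -0.37. The number below 0 was 13 without control replicate 4 or aP2-Cre replicate 3 and 12 without aP2-Cre replicate 2. Srebf1, which encodes SREBP-1, was at 199, 200.1, 187 and 232 CPM in control replicates 1 to 4 and at 167, 131, 150.5 and 179 CPM in aP2-Cre replicates 1 to 4, with no overlap (log2 fold change -0.38, edgeR adjusted p = 0.507), and Rai1 overlaps it on the other strand. Acaca, the acetyl-CoA carboxylase gene of fatty acid synthesis, was at 255 ± 49.1 and 174 ± 34.7 CPM (SD, n = 4, giving -0.55 on the log2 scale with edgeR adjusted p = 0.472), but shares 5412 of its 17075 words with Gm5182. Pnpla3, named after its values were seen, also had an unadjusted p under 0.05 (log2 fold change -0.59, edgeR adjusted p = 0.58), as did Acaca and Srebf1. These 3 of 14 stand beside 2.87% of all genes. The number went from 3 to 8 without aP2-Cre replicate 4, to 5 without control replicate 2 and to 5 with limma-voom.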

How the data were processed

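Total RNA of epididymal fat from 8 samples was sequenced by BRB-seq, with 51 bases of insert read, per the labels' protocols. The authors deposited 1 table of estimated counts per gene, not normalized; Salmon and GRCm38 are named in the submitters' processing notes, and other settings are not given in the sources used here. Estimated counts were rounded to whole numbers. Identifiers were matched without version to GENCODE M21 (GRCm38). Totals ranged from 1538427 to 3053565; a gene at 0 could reach 3 counts, or 0.982 to 1.95 CPM, by counting error only. The chi-square per degree of freedom between replicates of a genotype was 4.48 to 9.4, so none was a mere resampling of another. Separate preparations from the same animal could also reach such values.

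Genotypes were compared with edgeR 4.0.16 (R 4.3.3; robust quasi-likelihood test, trimmed-mean factors, filterByExpr, Benjamini-Hochberg adjustment over 12480 genes, threshold 0.05); the standard error is the log2 fold change over the root of F. Ratios used log2 CPM with a prior count of 2 and exact permutation (scipy 1.17.1). On simulated data of 12217 genes the test recovered 62.5% of 2-fold and 93.2% of 4-fold changes. Alternatives were other scaling and filters, DESeq2 1.42.0, limma-voom 3.58.1, downsampling, a replicate block and leaving out each library; for list counts these were added after seeing the data. Shared words of 31 bases were counted in GENCODE transcripts and promoters came from RefSeq. Genes named are the 10 members, 8 paralogs, the 2 non-members with the smallest p in each of 8 lists and the 5 most like Slc2a4; Gpi1, Tpi1, Pfkfb1, Pfkm and Pnpla3 were named after their values were seen. Members and lists were chosen with earlier results of these data known.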

Additional observations from a re-analysis of the deposited data

Results flagged for a closer look

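Within a genotype, 1 library of 4 lay far from the rest by Dixon's test at its 95% level in 6 of 76 groups examined, where chance gives about 1 in 20 groups. Insr was at 111.6 CPM in aP2-Cre replicate 1, against 74.4 to 78.3 CPM in the other 3. Inpp5d was at 26.8 CPM in the same library, against 13.003 to 14.6 CPM. Igf1r was at 121.7 CPM in aP2-Cre replicate 3, against 65.3 to 73.9 CPM. Akt1 was at 101.7 CPM in the control replicate 2 library and 89.4 to 90.8 CPM in the others. Sesn1 was at 38.7 CPM in the control replicate 3 library and 29.8 to 31.2 CPM in the others. The log2 ratio of Hk2 to Hk1 was 2.12 for control replicate 2 and 1.40 to 1.51 for the rest of the controls.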

How the results depend on the processing

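None of the 10 genes passed the adjusted threshold under any of the 17 settings, with adjusted p of 0.58 or more. The count of all genes past it went from 21 to 58 without the low-count filter, 55 with DESeq2, 9 after downsampling, 6 with the replicate block and 4 to 43 when 1 library was left out (4 without control replicate 2, 43 without control replicate 4); the cause was not tested. Deviations of same-numbered libraries correlated at 0.25, -0.06, -0.01 and -0.24. These mixed values neither show nor exclude that same-numbered libraries share more than a number. The replicate block left 0 of the 10 genes called. Insr, at 0.004348, turned to -0.0042 with upper-quartile factors and -0.0251 with limma-voom, and spanned -0.1466 to 0.0712 as libraries were left out singly. Paralogs near 0 also turned: Foxo3 with limma-voom (-0.0135), Akt1 (0.0033) and Hk1 (-0.1445) after downsampling. Leaving out 1 library gave -0.0885 to 0.0268 for Akt1, -0.0808 to 0.0754 for Foxo3, -0.0935 to 0.2085 for Hk1, -0.3884 to 0.0663 for Igf1r, -0.3199 to 0.1232 for Slc2a3 and -0.129 to 0.3561 for Tbc1d1. The ratio of Slc2a4 to Slc2a1 ranged from -0.1246 to 0.4811 and that of Slc2a4 to adipocyte markers from -0.102 to 0.0904; with 3 against 4 libraries the exact p cannot go below 0.0571. Lipogenic genes with an unadjusted p under 0.05 numbered 7 with the replicate block. Slc2a1 had 20 to 45 counts per library, the fewest of the 10 genes.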
